A study of Mus musculus with 6 samples.

Results

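CC chemokines are small secreted proteins that direct leukocytes between blood and tissue, and 9 CC chemokine genes were taken here together with Cx3cl1, which encodes the membrane-anchored chemokine fractalkine. The 10 genes were chosen by symbol from a list of names. Of these, 9 had a row in the deposited table of 24348 genes (Ccl2, Ccl5, Ccl7, Ccl8, Ccl11, Ccl19, Ccl25, Ccl27a and Cx3cl1), and Ccl20, which encodes the ligand of CCR6, had none and was not analysed here. The table came from total RNA of fibroblasts sorted from the whole dissected synovium, the connective tissue that lines joints, of adult wild-type C57BL/6 mice. There were 3 libraries after intravenous injection of immune complexes (IC; per the study's methods, ovalbumin bound by a polyclonal antibody) and 3 after vehicle, labelled as control, and the groups shared strain, tissue and sort. The interval from injection to collection and the gate used for the sort are not given in the sources used here, and the labels do not say whether each library came from 1 mouse, so p-values measure the spread between these libraries, which may be in part technical. The comparison asks which chemokine transcripts of synovial fibroblasts differed after circulating IC.

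Chemokines act on G-protein-coupled receptors of leukocytes and are held on heparan sulfate chains of matrix and endothelium, where they form local gradients. Fibroblasts of connective tissue are a known source of CC chemokines that attract monocytes and eosinophils. Many chemokine genes lie side by side in clusters and are inducible by NF-kB, AP-1 and STAT factors.

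Ccl2, Ccl7 and Ccl8 lay above the vehicle range in all IC libraries, by 1.67-fold, 1.97-fold and 1.79-fold. They encode MCP-1, MCP-3 and MCP-2, which carry the name monocyte chemoattractant protein. Ccl8 alone passed the test across all genes in DESeq2, and none of the 8 tested passed it in edgeR, which called 0.186% of all genes. The eotaxin gene Ccl11, which lies between Ccl7 and Ccl8 on chromosome 11, and the genes Ccl19, Ccl25, Ccl27a and Cx3cl1 did not pass it and overlapped between the groups. Ccl5, which encodes RANTES, was near the detection limit in 4 of the 6 libraries.

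Genes were tested where at least 10 reads were counted in at least 3 libraries, which 19925 genes and 8 of the 9 chemokine genes met. Called means a DESeq2 Benjamini-Hochberg adjusted p under 0.05 over those genes. Of the 8 genes 1 was called, in the higher direction, where 1.03% of all genes tested were called higher and 2.1% in either direction. At an unadjusted p under 0.05 the count was 3 of 8, all higher, in both DESeq2 and edgeR, against 4.91% and 4.79% of all genes higher and 9.8% and 9.64% in either direction. In 3 of 8 genes all IC libraries lay above all vehicle libraries, against 8.09% of all genes, and in 0 of 8 the reverse, against 7.67%. The median log2 fold change of the 8 genes was 0.34, against -0.0019 over all genes tested.

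Ccl2 (chr11:82035571-82037453, plus strand, mm10) had normalized counts, that is read counts divided by DESeq2's size factor of the library, of 3358, 2716 and 5086 in IC libraries 1, 2 and 3 and of 2267, 2344 and 2062 in the vehicle libraries. All IC libraries were above all vehicle libraries, and IC library 3 was the highest. The means were 3720.1 ± 1226 for IC and 2225 ± 146 for vehicle (SD, 3 libraries per group). The log2 fold change was 0.74 (SE 0.28, 95% interval 0.19 to 1.29), with a DESeq2 adjusted p of 0.164 and an edgeR adjusted p of 0.141, and so Ccl2 was not called. MCP-1 is the principal ligand of CCR2, through which monocytes leave the bone marrow and enter tissue. In bulk libraries fewer cells of a type and less RNA per cell cannot be told apart, which holds for each difference given here.

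Ccl7 (chr11:82045712-82047525, plus strand), which encodes a further ligand of CCR2 and of other receptors, had normalized counts of 4533, 4958 and 8979 after IC and of 3322, 3219 and 2826 after vehicle. The groups were again separate, with IC library 3 the highest and the vehicle libraries within a narrow range. The means were 6157 ± 2453 and 3122 ± 262. Ccl7 had the largest fold change of the 8 genes, at a log2 value of 0.98 (SE 0.34, 95% interval 0.32 to 1.64), with adjusted p = 0.104 in DESeq2 and 0.0967 in edgeR.

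Ccl8 (chr11:82115185-82116799, plus strand) encodes MCP-2, which in mice signals through CCR8. Its normalized counts were 749, 776 and 1419 after IC and 532, 544 and 568 after vehicle. The vehicle libraries lay close together, and IC library 3 stood above IC libraries 1 and 2, which in turn were above all vehicle libraries. The means were 982 ± 379 and 548 ± 18.2. Ccl8 rose by a log2 fold change of 0.84 (SE 0.22, 95% interval 0.42 to 1.27), or 1.79-fold with an interval of 1.34 to 2.41, at a DESeq2 adjusted p of 0.00748. In edgeR's quasi-likelihood test the log2 fold change was also 0.84 and the adjusted p was 0.176, so the call holds in DESeq2 and not in edgeR.

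**Figure D1:**
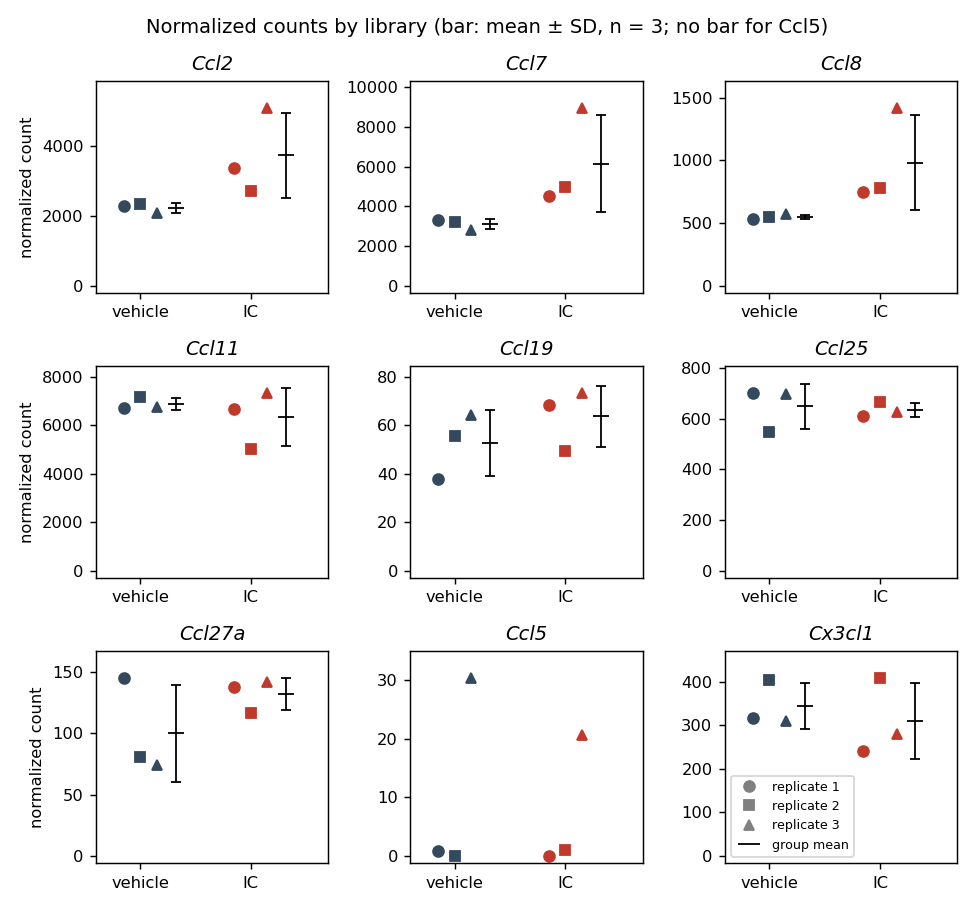
Normalized counts (vertical axes, linear, each with its own scale) of 9 chemokine genes in the 3 vehicle and 3 IC libraries. Marker shapes stand for replicates 1 to 3 and bars for the group mean ± SD, with no bar for Ccl5. Ccl2, Ccl7 and Ccl8 were higher in all IC libraries than in all vehicle libraries, IC library 3 was the highest for each, and the other genes overlapped between the groups.

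The fold changes of Ccl2, Ccl7 and Ccl8 had overlapping intervals, and the differences between the 3 genes were not tested. Their different calls followed the handling of the spread between libraries. DESeq2 estimates a dispersion for each gene and pulls it toward the trend of genes of like abundance, except where it lies far above that trend, as it did for 206 of the 19925 genes (1.03%). Ccl2 and Ccl7 were among these exempted genes, with gene-wise dispersions of 0.0559 and 0.0825 against trend values of 0.00809 and 0.00678. The gene-wise dispersion of Ccl8, 0.067, was similar in size, but its trend value was 0.0186, and it was pulled down to 0.0324 before the test. With no gene exempted, an alternative chosen after seeing the data, all 3 genes were called (adjusted p = 0.000945 for Ccl2, 1.42e-05 for Ccl7 and 0.00638 for Ccl8), where 1.16% of all genes were called higher.

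IC library 3 was highest for Ccl2, Ccl7 and Ccl8, and the sizes of their differences rested in part on it. Without it the log2 fold changes were 0.45 for Ccl2, 0.60 for Ccl7 and 0.48 for Ccl8. In that fit Ccl2 and Ccl7 were called (adjusted p = 0.0277 and 1.21e-05), since their dispersions then lay near the trend, and Ccl8 was not (adjusted p = 0.103), with 0.622% of all genes called higher. Ccl8 was also not called without vehicle library 2 or 3 (adjusted p = 0.0717 and 0.0911) and stayed called without IC library 1, IC library 2 or vehicle library 1 (0.0051, 0.00994 and 0.0493). Ccl2 was called without any 1 of the IC libraries, at adjusted p = 0.0111 without library 1 and 1.52e-05 without library 2, and Ccl7 also without IC library 1 (3.86e-06). In the fits that called them, Ccl2 and Ccl7 were no longer exempted from the pull toward the trend. Without IC library 1 the gene-wise dispersion of Ccl2, 0.0638, was above its 0.0559 with all 6 libraries, but was pulled to 0.026. That of Ccl7 was pulled from 0.0598 to 0.0232. Without IC library 2 Ccl7 stayed exempted and was not called (adjusted p = 0.0887). Of the 8 genes, 3 were called without IC library 1, where 0.763% of all genes were called higher, 2 without IC library 2 (0.748%), 1 without vehicle library 1 (1.65%) and 0 without vehicle library 2 (0.778%) or 3 (0.748%). The direction was higher after IC for Ccl2, Ccl7 and Ccl8 in each of the 6 fits.

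**Figure D2:**
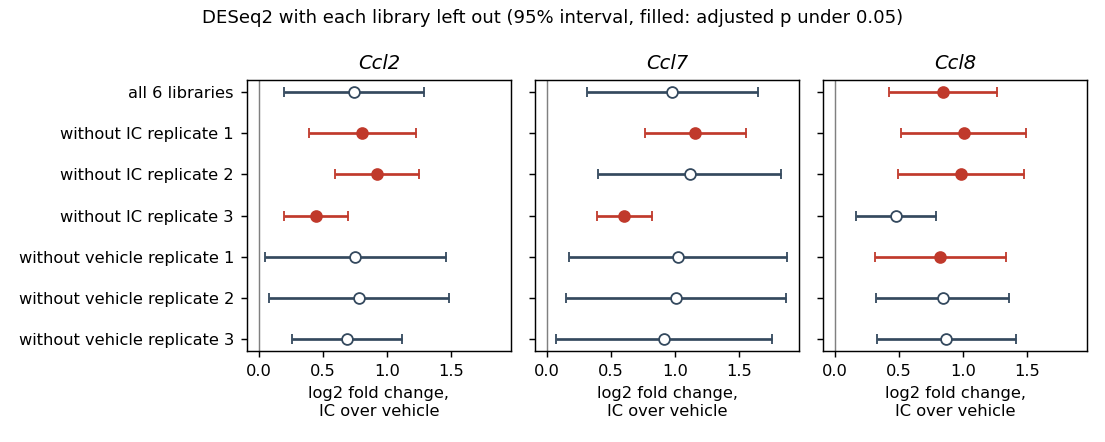
DESeq2 log2 fold changes, IC over vehicle (horizontal axes), of Ccl2, Ccl7 and Ccl8 with all 6 libraries and with each library left out, with bars for the 95% interval and filled points for an adjusted p under 0.05. The point estimates stayed above 0 in all fits and were lowest without IC replicate 3 for each gene.

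Ccl11 (chr11:82057823-82062955, plus strand) encodes eotaxin-1, the CCR3 ligand that attracts eosinophils. It had normalized counts of 6664, 5027 and 7336 after IC and of 6698, 7169 and 6743 after vehicle. IC library 2 was the lowest and IC library 3 the highest of the 6, so the groups overlapped. The means were 6342 ± 1187 and 6870.3 ± 260.0, with a log2 fold change of -0.12 (SE 0.12), adjusted p = 0.849 in DESeq2 and 0.853 in edgeR. The 95% interval of the fold, 0.786 to 1.08, did not reach the point estimates of Ccl2, Ccl7 or Ccl8.

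The reads of Ccl2, Ccl7 and Ccl8 were also set against those of Ccl11 in the same library, a comparison that no scaling between libraries can change and that was chosen after the values were seen. The ratio Ccl2/Ccl11 was 0.504, 0.54 and 0.693 in the IC libraries and 0.338, 0.327 and 0.306 in the vehicle libraries. The ratio Ccl7/Ccl11 was 0.68, 0.986 and 1.22 after IC and 0.496, 0.449 and 0.419 after vehicle. The ratio Ccl8/Ccl11 was 0.112, 0.154 and 0.194 after IC and 0.0794, 0.0759 and 0.0842 after vehicle. All 3 ratios were above the vehicle range in each IC library, by 1.79-fold, 2.12-fold and 1.92-fold between group means. The exact two-sided permutation test of each gave p = 0.1, the smallest that 3 against 3 libraries allow. The ratios Ccl7/Ccl2 and Ccl8/Ccl2 overlapped between the groups (exact permutation p = 0.4 and 0.8), as did Ccl25/Ccl11 and Cx3cl1/Ccl11 (0.8 and 1). These are 7 ratios in all, and with Benjamini-Hochberg adjustment the lowest p of the family was 0.233.

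**Figure D3:**
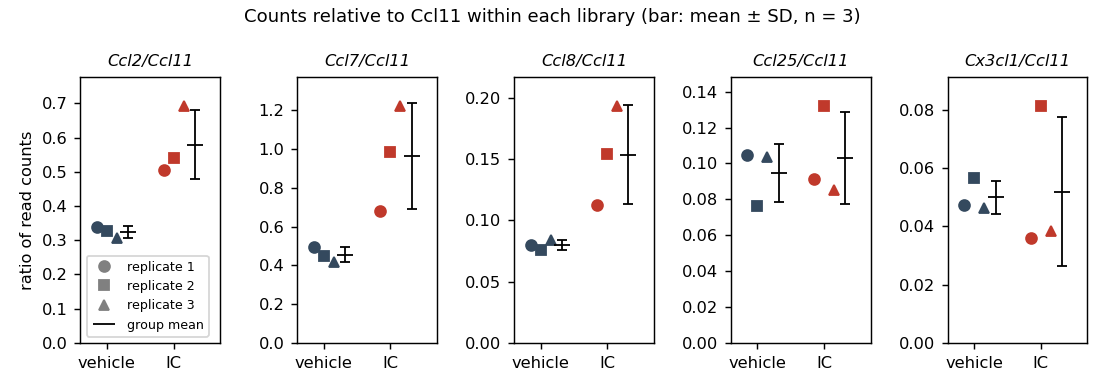
Ratio of read counts to those of Ccl11 in the same library (vertical axes, linear, starting at 0) for 5 chemokine genes in vehicle and IC libraries, with bars for the group mean ± SD. The ratios of Ccl2, Ccl7 and Ccl8 were separate between the groups, and those of Ccl25 and Cx3cl1 overlapped.

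The genes for Ccl2, Ccl7, Ccl11 and Ccl8 lie in that order on the plus strand within 81229 bases of chromosome 11 (GENCODE annotation of GRCm38). The gaps are 8258 bases from Ccl2 to Ccl7 and 10297 bases from Ccl7 to Ccl11. Ccl12 lies between Ccl11 and Ccl8, 38889 bases from the former and 11784 bases from the latter, and was not analysed here. The 4 measured genes of the cluster held between 91.2% and 95.2% of the summed counts of the 9 chemokine genes in each library, as reads with no correction for gene length, so that these shares are read between libraries and not between genes. Within that sum the share of Ccl11 was 40.7%, 34.2% and 30.6% in the IC libraries and 47.8%, 49.9% and 50.4% in the vehicle libraries. The share of Ccl7 was 27.7%, 33.7% and 37.5% after IC and 23.7%, 22.4% and 21.1% after vehicle. The groups did not overlap for either share, with Ccl11 below and Ccl7 above its vehicle range in each IC library. The shares of Ccl2 and Ccl8 were also above their vehicle ranges. As shares are parts of a whole, a rise in other genes lowers that of Ccl11, whose own normalized counts overlapped between the groups. The shares come from the same counts as the differences and ratios given above and are not separate results.

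For the called gene Ccl8 the 250 bases before the annotated start are shown, from RefSeq's table of mouse promoters (GRCm38.p6). The table also held windows of Ccl19, Ccl20, Ccl25, Ccl27a and Cx3cl1, so that 6 of the 10 genes matched. The sequence runs 5′ to 3′ on the gene's strand, and capitals mark a match to 1 of 4 motifs searched on both strands: NF-kB as GGG, any 5 bases and CC, a STAT element (GAS) as TTCNNNGAA, AP-1 as TGANTCA and a TATA box as TATAAA.
Ccl8, chr11:82114935-82115184: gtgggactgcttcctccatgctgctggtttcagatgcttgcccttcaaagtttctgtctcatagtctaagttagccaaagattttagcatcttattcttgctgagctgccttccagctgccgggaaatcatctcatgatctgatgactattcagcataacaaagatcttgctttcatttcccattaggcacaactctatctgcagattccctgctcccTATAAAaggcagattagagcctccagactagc
In the Ccl8 window the TATA letters lay 32 to 27 bases before the start, and the letters of the NF-kB, GAS and AP-1 motifs as spelled here did not occur. Of the other genes, NF-kB letters occurred in a window of Ccl19, Ccl20 and Ccl27a, AP-1 letters in a window of Ccl27a, and TATA letters in a window of Ccl25 and Cx3cl1. GAS letters occurred in no window of the 6 genes. Over 32851 windows of this length the NF-kB letters occurred in 45.8%, GAS in 7.02%, AP-1 in 6.75% and TATA in 12.4%. A match is a description of letters, and no match says only that they are not in this window.

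Among the homeostatic chemokines, Ccl19 (chr4:42754525-42756577, minus strand), which encodes a CCR7 ligand that guides dendritic cells and naive T cells, had normalized counts of 68.3, 49.6 and 73.5 after IC and of 37.7, 55.7 and 64.4 after vehicle. The groups overlapped, with a log2 fold change of 0.28 (SE 0.47) and DESeq2 adjusted p = 0.926, and the 95% interval of the fold ran from 0.647 to 2.29. Of the distinct 50-base stretches of its annotated transcripts 52.0% also occur in Gm2564, Ccl19-ps3, Gm12407 or Ccl19-ps1, so its reads may be split or dropped in counting and its level is uncertain.

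Ccl25 (chr8:4325210-4360020, plus strand), which encodes the CCR9 ligand of thymus and gut, had normalized counts of 609, 665 and 625 after IC and of 702, 546 and 697 after vehicle. Vehicle library 2 was the lowest and vehicle libraries 1 and 3 were the highest, so that the IC libraries fell inside the vehicle range. The log2 fold change was -0.03 (SE 0.16, 95% interval of the fold 0.784 to 1.22), with DESeq2 adjusted p = 0.982. It shares 204 exonic bases with Elavl1 on the opposite strand, and the strand setting of the counting is not given in the sources used here.

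Ccl27a (chr4:41769467-41774247, minus strand), which encodes a CCR10 ligand known from skin, had normalized counts of 138, 117 and 142 after IC and of 145, 80.3 and 74.2 after vehicle. Vehicle library 1 was at the level of the IC libraries and the other vehicle libraries were lower. The log2 fold change was 0.40 (SE 0.37, 95% interval of the fold 0.801 to 2.16), with DESeq2 adjusted p = 0.817. It shares 45.0% of its 50-base stretches with other genes, among them Ccl27b and 5 predicted genes. It also shares 8 exonic bases with Il11ra1 on the opposite strand, so its counts are uncertain too. Il11ra1, the receptor gene for interleukin-11, was at a log2 fold change of -0.11 (DESeq2 adjusted p = 0.806).

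Cx3cl1 (chr8:94772009-94782427, plus strand), the ligand of CX3CR1 on monocytes and macrophages, had normalized counts of 240, 409 and 281 after IC and of 316.5, 405 and 311 after vehicle. Replicate 2 was the highest in both groups, and the groups overlapped. The means were 310 ± 88.2 and 344 ± 52.8, with a log2 fold change of -0.15 (SE 0.24, 95% interval of the fold 0.646 to 1.26) and DESeq2 adjusted p = 0.926.

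Ccl5 (chr11:83525778-83530518, minus strand), whose product attracts T cells and monocytes, had 0, 1 and 23 reads in the IC libraries and 1, 0 and 25 in the vehicle libraries. It did not reach the count minimum and was not tested. The reads lay almost wholly in 1 library of each group, at 0.426 and 0.623 CPM (reads scaled to library total). A count of 0 allows up to 3 reads, or 0.0688 and 0.0575 CPM in the libraries at 0, counting error only.

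**Figure D4:**
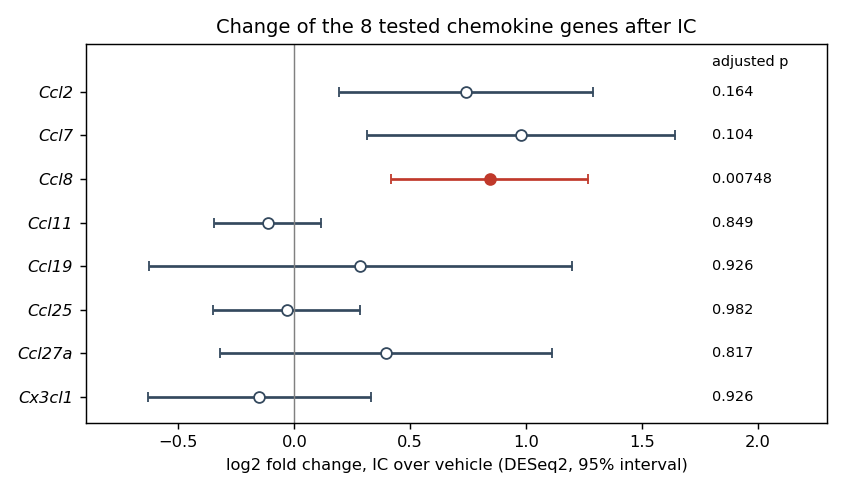
DESeq2 log2 fold change, IC over vehicle (horizontal axis), of the 8 chemokine genes tested, with bars for the 95% interval and the adjusted p at the right. Ccl8 (filled) was called, the intervals of Ccl2 and Ccl7 lay above 0 without passing the adjusted threshold, and those of the other 5 genes spanned 0.

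Levels of the genes were also compared per length, as normalized counts per kilobase of annotated exons. After vehicle the order was Ccl11 (6350 ± 240), Ccl7 (3898 ± 327), Ccl2 (1955 ± 128), Ccl8 (1072 ± 35.5), Cx3cl1 (87.6 ± 13.4), Ccl25 (87.1 ± 11.9), Ccl19 (60.7 ± 15.7) and Ccl27a (42.0 ± 16.5), all SD with n = 3. The first 4 genes did not overlap with their neighbours over the vehicle libraries. Cx3cl1, Ccl25 and Ccl19 did not differ beyond their spread from the next gene in that order, and Ccl5 ranged from 0 to 31.7 per kilobase over all libraries. After IC the per-kilobase mean of Ccl7 (7686 ± 3063) was above that of Ccl11 (5862 ± 1097), within the spread of the libraries, followed by Ccl2 (3269 ± 1077) and Ccl8 (1921 ± 742). Lengths of the longest transcript in place of all exons moved the vehicle mean of Ccl25 to 254, above Cx3cl1 (104), and that of Ccl27a to 100.3, above Ccl19 (68.1).

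The genes whose pattern over the 6 libraries was most like that of Ccl8, among 13428 other genes averaging 100 normalized counts or more, were Glul, Ide, Plac8, Gm49077 and 1700066M21Rik. Their Pearson correlations with Ccl8 on a log2 scale ran from 0.992 to 0.999 and their Spearman correlations from 0.886 to 1, over libraries that all genes share. Plac8 had normalized counts of 610.5, 671 and 1562 after IC and 409, 417 and 499 after vehicle, the same profile with IC library 3 far above the rest. Ide, which encodes insulin-degrading enzyme, had a log2 fold change of 0.52. The 5 genes were picked for likeness to Ccl8, which was separate between the groups. Their own differences between the groups follow from that choice and are not separate results.

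Of the 16 other CC and XC chemokine genes listed, 4 were in the table, 2 were tested and 0 were called by DESeq2 or edgeR, with 1 at an unadjusted p under 0.05. That gene was Ccl9, which encodes a CCR1 ligand of the macrophage inflammatory protein group. It had normalized counts of 227, 176 and 105 after IC and 111, 59.5 and 66.9 after vehicle. Here IC library 3 was the lowest IC library and lay below vehicle library 1, unlike for Ccl2, Ccl7 and Ccl8. The log2 fold change of Ccl9 was 1.09 (SE 0.39), with DESeq2 adjusted p = 0.126 and edgeR adjusted p = 0.32. It was called without IC library 3 (adjusted p = 0.0493) and without vehicle library 1 (0.0323). Ccl28, a mucosal chemokine, had 35.3, 58.9 and 20.6 after IC and 41.8, 11.3 and 14.6 after vehicle, too low for DESeq2 to give an adjusted p. Ccl6, named after its values were seen, had 3, 5 and 32 reads in the IC libraries and 1, 0 and 0 in the vehicle libraries and was not tested.

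Transcripts of the receptors were scarce in these libraries. Of 11 conventional receptor genes 4 were in the table and only Ccr10 was tested, with a log2 fold change of -0.03, and 0 were called by either tool or had an unadjusted p under 0.05. Ccr2, the receptor of MCP-1, had 0 to 7 reads per library and Cx3cr1, the receptor of fractalkine, 0 to 25. The 5 atypical receptors, which bind chemokines without signalling to migration, were all tested and 0 were called by either tool, with 2 at an unadjusted p under 0.05 in DESeq2. Ackr3, a scavenger of CXCL12, was the most counted of them, at 16276, 13703 and 20013 after IC and 17302.5, 19877 and 17003 after vehicle (log2 fold change -0.12, adjusted p = 0.845). Ackr1, the venular receptor that binds Ccl2 and many other chemokines, had 1732, 1802 and 2208 after IC and 1661, 1431 and 1451 after vehicle. Its groups were separate, with a log2 fold change of 0.34 (SE 0.13), but it was not called (DESeq2 adjusted p = 0.163, edgeR 0.322).

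Among 17 genes for chemokine processing and anchoring (sheddases, proteases, heparan sulfate enzymes and syndecans), 15 were tested, 0 were called higher and 1 lower, where 1.07% of all genes were called lower, and the median log2 fold change was -0.09. The called gene was Adam10, which encodes a membrane protease that sheds fractalkine from the cell surface. It had normalized counts of 3658, 3497 and 3776 after IC and 4387, 4380.0 and 4611 after vehicle. Every IC library was below every vehicle library, and Adam10 fell by 0.29 on the log2 scale (SE 0.084, DESeq2 adjusted p = 0.0266, edgeR 0.147). The call was lost without IC library 1 (0.0809), IC library 2 (0.148) or vehicle library 3 (0.144). Adam17, the other sheddase of fractalkine, named after its values were seen, was at -0.10 on the log2 scale (adjusted p = 0.779). The most counted genes of the list were Mmp2 (-0.09, adjusted p = 0.786) and Mmp14 (-0.05, adjusted p = 0.911), matrix metalloproteinases that can cleave monocyte-attracting chemokines.

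Of 17 regulators of chemokine genes, all tested, 1 was called higher and 0 lower by DESeq2, which called 1.03% of all genes higher and 1.07% lower, and 0 by edgeR, which called 0.186%. The called gene was Nfkb2, which encodes the p100 subunit of the non-canonical NF-kB pathway, with 15799.5, 17391 and 14315 normalized counts after IC and 12944, 12054 and 13289 after vehicle. All IC libraries were above all vehicle libraries, with a log2 fold change of 0.31 (SE 0.087, DESeq2 adjusted p = 0.0208, edgeR 0.215). The call was lost without IC library 1 (0.112), IC library 2 (0.221), vehicle library 2 (0.164) or vehicle library 3 (0.0749). Log2 fold changes were positive in 15 of the 17 genes, with a median of 0.14, against -0.0019 over all genes tested. In 7 genes all IC libraries lay above all vehicle libraries, against 8.09% of all genes. The list was chosen with earlier results of these data known. It also mixes genes that raise and genes that lower chemokine transcripts, so a shared sign gives no direction of regulation. The most counted genes were Zfp36, which encodes an RNA-binding protein that destabilizes chemokine transcripts (0.13, adjusted p = 0.533), and the interferon regulatory factor gene Irf1 (0.11, adjusted p = 0.59).

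**Figure D5:**
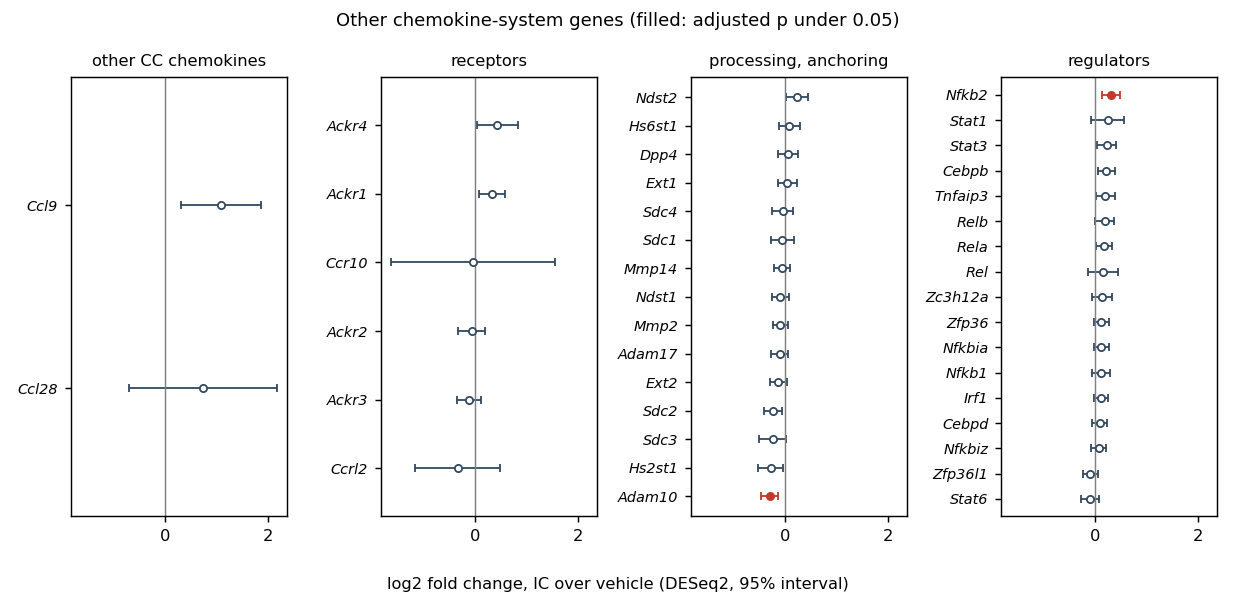
DESeq2 log2 fold change, IC over vehicle (horizontal axis), of the tested genes of 4 chemokine-related groups, conventional and atypical receptors together, with bars for the 95% interval and filled points for an adjusted p under 0.05. Nfkb2 was called higher and Adam10 lower, and the regulators lay mostly above 0 by small amounts.

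The libraries held between 40114331 and 56714304 counted reads. Fibroblast markers were abundant, with all 8 in the table and a summed level of 32478 to 33515 CPM after IC and 31648 to 38195 after vehicle. In that list DESeq2 called Prg4, the lubricin gene of lining fibroblasts, higher (log2 fold change 0.94) and Lum lower (-0.36). It called 1.03% of all genes higher and 1.07% lower. In edgeR neither was called (adjusted p = 0.0541 for Prg4 and 0.135 for Lum). Of the 12 macrophage markers 7 were in the table, with sums of 26.1 to 37.9 after IC and 30.0 to 35.4 after vehicle and 0 called. The scarcest of them, C1qb, had 0 to 4 reads per library, and the most counted, Cd68, had 1056 to 1625. IC library 3, the highest for Ccl2, Ccl7 and Ccl8, had the lowest macrophage marker sum of the 6. Most of that sum was Cd68 (21.9 of 26.1 CPM). Cd68, Lyz2 and Mrc1 were lowest in IC library 3, and C1qb, Cd14, Csf1r and Fcer1g were not. The part of macrophage RNA in the chemokine results was not tested.

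Marker sums of other cells differed between the groups in part. Blood endothelial markers (7 of 7 in the table, 2 called lower, against 1.07% of all genes) summed to 224 to 267 CPM after IC and 266 to 308 after vehicle. These sums overlapped. By normalized counts Ackr1, which is in this list, lay above the vehicle range in all IC libraries. Cdh5, Kdr and Emcn lay below it in all IC libraries, and Pecam1, Tek and Plvap overlapped. Lymphatic endothelial markers (3 of 4 in the table, 0 called) summed to 61.0 to 122 after IC and 125 to 146 after vehicle. Skeletal muscle markers (8 of 8, 2 called lower, against the same 1.07%) summed to 25.2 to 56.1 and 58.0 to 116. Of 5 neutrophil markers only S100a8 was in the table, with 6, 12 and 6 reads in the IC libraries and 0 in each vehicle library, and of 9 T and NK cell markers only Cd4, at 0.907 to 1.46 CPM after IC and 0.648 to 1.60 after vehicle. IC library 3 also had the lowest sum of the blood endothelial, lymphatic endothelial and muscle lists. The part of these differences in the chemokine results was not tested.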

How the data were processed

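Total RNA of sorted synovial fibroblasts was sequenced in 6 libraries. Per the labels, libraries were made with Illumina's stranded total RNA kit and Ribo-Zero Plus depletion, whereas the study's methods name a SMARTer Pico kit for its bulk RNA-seq, so the kit is uncertain. The authors deposited raw read counts per gene, and the submitters' processing notes name Trim Galore, FastQC, HISAT2, featureCounts and mm10. Their versions, the annotation and the strand setting are not given in the sources used here. The study's methods mention removal of batch effects with sva, but no batch is given for these libraries.

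Counts were tested with DESeq2 1.42.0 (the tool of the study's methods, Wald test, treatment only) in R 4.3.3, over genes that reached 10 counts in 3 or more libraries and with Benjamini-Hochberg adjustment at 0.05. edgeR 4.0.16 (quasi-likelihood), limma 3.58.1 (voom), TMM scaling, other filters, a replicate block, 1 surrogate variable (sva 3.50.0) and fits without each library were alternatives, and the fit without exempted dispersions was added after seeing the data. The code was tested on simulated counts. Totals of 40114331 to 56714304 reads per library set the counting error, and tests rest on the spread between 3 libraries per group.

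All 10 chemokine genes were named. From each other list, the genes called by DESeq2 and the 2 tested genes with the highest mean were named, with any other named gene marked as chosen after its values were seen, and markers were used as lists. The genes and lists were chosen with earlier results of these data known. Same-numbered libraries of the 2 groups did not deviate together (correlations -0.0918, -0.164 and 0.025 over 13435 genes), so numbers were not taken as pairs. Gene lengths, overlaps and shared 50-base stretches came from the GENCODE annotation of GRCm38.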

Additional observations from a re-analysis of the deposited data

How the results depend on the processing

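Of the alternative values of the 8 log2 fold changes, 109 kept their direction and their side of the threshold, 8 gained a call, 6 lost one and 4 changed sign. The count of chemokine genes called, 1 in DESeq2, was 0 in edgeR, in limma-voom and in edgeR with a replicate block, which called 37, 62 and 22 of all 19925 genes, 2 in DESeq2 with a replicate block (137 of 19925 genes called higher in all), 3 with no dispersion exempted, and 0 to 3 without 1 library. Ccl8 had log2 fold changes of 0.84 in edgeR, 0.81 in limma-voom and 0.78 in edgeR with the replicate block, none called (adjusted p = 0.176, 0.203 and 0.225). Ccl2 had 0.69 and was called in DESeq2 with the replicate block (adjusted p = 0.00356), and with no dispersion exempted Ccl2 (0.74) and Ccl7 (0.98) were called. In DESeq2 with the block Ccl2 was no longer exempted, and its dispersion was pulled from 0.0709 to 0.0194. Ccl7 stayed exempted at 0.0984 and was not called (adjusted p = 0.319). The changes under edgeR and limma-voom, with or without the block, had no tested cause. The same-numbered libraries are not known to be pairs, and the block changed no other call among the 8 genes.

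Without 1 library at a time the log2 fold changes ran from 0.45 to 0.92 for Ccl2, 0.60 to 1.16 for Ccl7, 0.48 to 1.003 for Ccl8, -0.23 to 0.026 for Ccl11, 0.088 to 0.45 for Ccl19, -0.14 to 0.028 for Ccl25, 0.23 to 0.77 for Ccl27a and -0.40 to 0.0019 for Cx3cl1. The sign changed without IC library 2 for Ccl11 (0.026), without vehicle library 1 or 3 for Ccl25 (0.028 and 0.021) and without IC library 1 for Cx3cl1 (0.0019), all near 0 and none called. Calls in the other lists ranged over these fits from 0 to 1 for other chemokines, 0 to 1 for processing genes and 0 to 2 for regulators. Processing genes and regulators called fell from 1 each to 0 in edgeR, limma-voom and both fits with the replicate block, and regulators also to 0 with 1 surrogate variable. Per kilobase of the longest transcript, the vehicle means of Ccl25, Ccl27a and Cx3cl1 were 254, 100.3 and 104.

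With 3 libraries a group, intervals of the fold reached from 0.647 to 2.29 for Ccl19, so that differences of this size in the low genes could not be resolved.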
